A study of Sus scrofa with 24 samples.

Results

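Expression of 10 interferon-induced antiviral genes was followed in the livers of 24 pigs (Sus scrofa) measured at 115 kg body weight. The genes were RSAD2, ISG15, OAS1, OAS2, IFIT1, IFIT2, IFIT3, IFI44, MX1 and MX2, and they were taken as all non-control array probes whose name, description or accession gives one of these genes. This found all 10 genes, with 26 probes among the 43603 probes of the array: 6 for OAS2, 5 for MX1, 4 for MX2, 3 for OAS1, 2 each for RSAD2 and IFIT3 and 1 each for the other genes. RSAD2 appeared on the array under its older name IRG6. The genes had been picked with their levels in these same pigs already known, so their group differences and their spread are given as descriptions.

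The pigs came from lines selected on residual feed intake (RFI), the feed eaten beyond what growth and maintenance account for. RFIneg was the low RFI line with free access to feed, RFIpl the high RFI line with free access to feed, and RFIplR pigs of the high RFI line held to the feed amount of the low RFI line. Each group held 8 pigs, each measured once on a 1-colour Agilent array from 150 ng of total liver RNA. The sex, litter and health of the pigs are not given in the sources used here.

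Interferons are secreted when cells sense foreign nucleic acid, and they bind receptors whose kinases activate transcription factors, IRF9 and STAT2 among them. These factors switch on a large set of genes in most cell types, and the genes studied here are among the most inducible of them. Their products act against viruses at different steps: on viral RNA, on translation, on nucleotide pools and on incoming viral particles. In liver they can be made by hepatocytes as well as by resident macrophages and other cells.

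All 26 probes were well above background on all 24 arrays, and none was saturated. Across arrays, between 63.2% and 72.7% of spots were well above background, with 65.7% on the array of RFIpl pig 5 and 69.6% on that of RFIpl pig 7. The 8 hepatocyte markers measured, ALB, TF, TTR, APOA1, APOA2, APOC3, SERPINA1 and CYP2E1, were well above background on all 24 arrays. In whole tissue, more cells of a type and more RNA per cell cannot be told apart.

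The array reads each gene through probes of 60 bases, and the probe decides which of several related family members is measured. The sequences below, written 5′ to 3′ as deposited, show 1 probe for 8 of the genes, all with a reading frame free of stop codons; for OAS1, OAS2 and MX1 it is another probe than the brightest one, whose levels are given further on. They let a reader see that the IFIT probes differ from each other, as do those of OAS1 and OAS2.
ISG15 (A_72_P441219): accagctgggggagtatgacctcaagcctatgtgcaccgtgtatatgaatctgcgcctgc
IFIT1 (A_72_P489826): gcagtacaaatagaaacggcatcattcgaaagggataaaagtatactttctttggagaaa
IFIT2 (A_72_P002311): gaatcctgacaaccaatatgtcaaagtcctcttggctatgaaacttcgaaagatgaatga
IFIT3 (A_72_P543787): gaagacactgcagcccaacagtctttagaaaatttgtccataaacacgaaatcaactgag
IFI44 (A_72_P207667): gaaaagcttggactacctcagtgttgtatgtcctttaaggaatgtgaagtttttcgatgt
OAS1 (A_72_P223657): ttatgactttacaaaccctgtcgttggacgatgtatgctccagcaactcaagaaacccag
OAS2 (A_72_P589381): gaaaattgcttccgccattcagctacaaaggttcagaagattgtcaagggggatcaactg
MX1 (A_72_P444250): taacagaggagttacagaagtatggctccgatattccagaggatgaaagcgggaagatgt

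Among all 289 pairs of probes for different genes of the set, the longest run of bases shared on either strand was 10. Several of the genes are neighbours in the pig genome by the RefSeq annotation of Sscrofa11.1: IFIT2, IFIT3 and IFIT1 follow each other, OAS2 lies next to OAS1, and MX2 next to MX1. RSAD2 lies next to CMPK2, and IFI44 next to IFI44L.

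The main feature of the data was a pair of pigs. RFIpl pigs 5 and 7 had the 2 highest levels of 24 for 8 of the 10 genes, and for 17 of the 26 probes. Of all 29666 probes kept for testing, 1.33% had their 2 highest pigs there. Both pigs were more than 2-fold above the median of the other 22 pigs for 9 of the 10 genes, against 0.738% of all kept probes, and MX2 in pig 5 was the exception at 1.88-fold. The genes were chosen with this pattern known, so these shares describe it and do not test it.

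**Figure D1:**
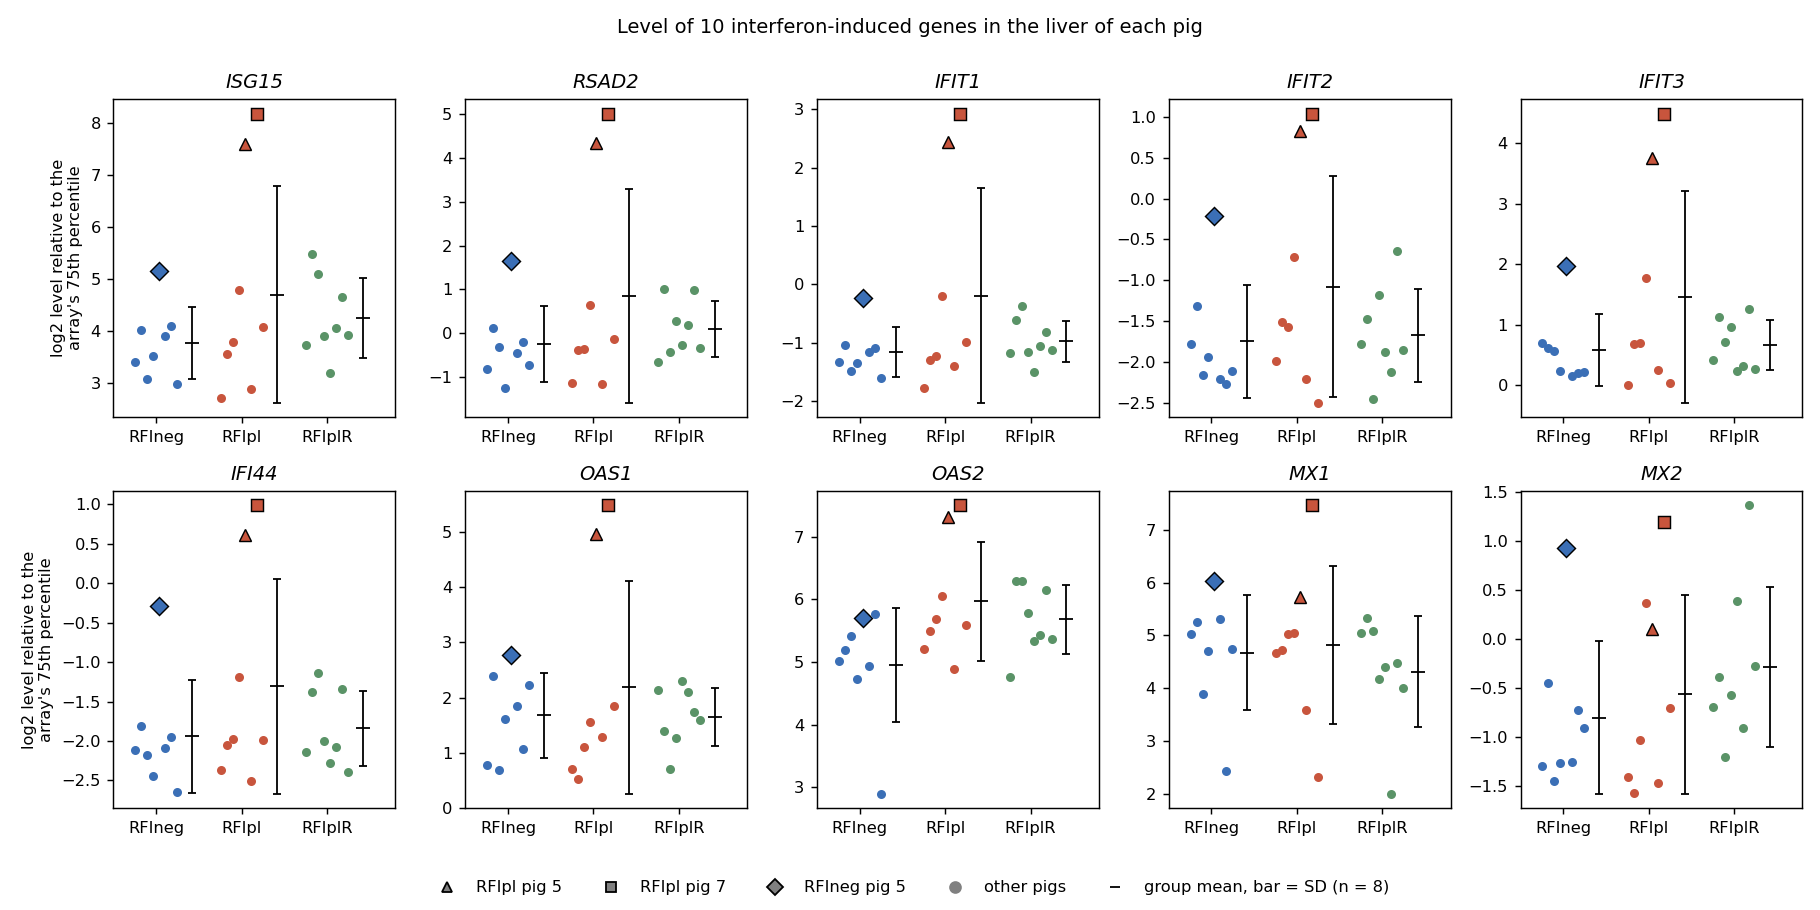
Level of each of the 10 genes in each pig, 1 panel per gene. The vertical axis is the log2 signal of 1 probe per gene, with the 75th percentile of its array subtracted, the horizontal axis gives the 3 groups with 8 pigs each, and the bar beside each group is its mean with its SD. RFIpl pigs 5 and 7 stand above all other pigs for 8 genes, for MX1 pig 7 alone does, and for MX2 both lie among other high pigs.

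A level is the log2 signal of a probe once the 75th percentile of its array has been subtracted, so a level of 0 equals that percentile, and each gene is described by the brightest of its kept probes. Levels are compared between pigs for the same probe and not between genes.

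RSAD2 (probe A_72_P303019) encodes viperin, an enzyme that makes a nucleotide able to stop viral RNA synthesis. Its lowest, median and highest levels were -1.24, -0.38 and 1.66 in RFIneg, -1.15, -0.25 and 5.02 in RFIpl, and -0.66, -0.048 and 1.01 in RFIplR. RFIpl pig 5 was at 4.34 and pig 7 at 5.02, which is 25.3-fold and 40.5-fold above the median of the other 22 pigs. The 3 groups overlapped, and without the high pair the RFIpl pigs lay within the range of the RFIneg pigs. Next came RFIneg pig 5, which lay 2.68 below RFIpl pig 5. A second RSAD2 probe, A_72_P443124, ranged from -4.90 in RFIneg pig 4 to 2.46 in RFIpl pig 7, with RFIpl pig 5 at 1.58. Over the other 22 pigs the RSAD2 probes correlated at 0.83.

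ISG15 (probe A_72_P441219) encodes a ubiquitin-like protein that is attached to viral and host proteins. Its lowest, median and highest levels were 2.98, 3.71 and 5.15 in RFIneg, 2.72, 3.94 and 8.18 in RFIpl, and 3.19, 3.98 and 5.49 in RFIplR. Levels of 7.60 and 8.18 in RFIpl pigs 5 and 7 were 13.0-fold and 19.4-fold above the other pigs' median. No other pig came within 2.11 of them, and RFIplR pig 2 was next. The 3 group medians lay closer together than the SD of any group, which was 0.70 in RFIneg, 2.08 in RFIpl and 0.76 in RFIplR.

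The IFIT proteins bind foreign RNA and hold back its translation. IFIT1 (probe A_72_P489826) recognises RNA whose cap lacks the host's methyl mark. Its levels ran from -1.60 through a median of -1.25 to -0.23 in RFIneg, from -1.77 through -1.11 to 2.92 in RFIpl, and from -1.50 through -1.09 to -0.37 in RFIplR. The high pair, at 2.44 and 2.92, was 12.1-fold and 16.9-fold above the other pigs' median. The remaining 22 pigs filled a narrow band, with an SD of 0.42, and the nearest of them, RFIpl pig 4, was 2.65 below RFIpl pig 5.

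IFIT3 (probe A_72_P543787), which stabilises IFIT1 on RNA, ran from 0.16 through 0.40 to 1.97 in RFIneg, from 0.0015 through 0.69 to 4.49 in RFIpl, and from 0.23 through 0.57 to 1.26 in RFIplR. The high pair was 9.62-fold and 15.9-fold above the other pigs' median, and RFIneg pig 5 and RFIpl pig 4 followed. Its second probe, A_72_P489821, gave 1.17 and 1.28 for the pair and no level above -0.96 in another pig. Those IFIT3 probes correlated at 0.89 over the other 22 pigs.

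IFIT2 (probe A_72_P002311), a partner of both, ran from -2.27 through -2.03 to -0.21 in RFIneg, from -2.50 through -1.54 to 1.04 in RFIpl, and from -2.45 through -1.82 to -0.64 in RFIplR. The pair of RFIpl pigs was 6.48-fold and 7.50-fold above the median of the others. Here the gap to the next pig was smaller than for IFIT1, at 1.04, and that pig was RFIneg pig 5. RFIpl pig 8 had the lowest IFIT2 level of all.

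IFI44 (probe A_72_P207667) is a strongly inducible gene whose protein function is less well understood. Its levels ran from -2.65 through -2.10 to -0.29 in RFIneg, from -2.51 through -1.98 to 0.99 in RFIpl, and from -2.40 through -2.04 to -1.14 in RFIplR. RFIpl pig 5 was 6.39-fold and pig 7 8.31-fold above the other pigs' median, with RFIneg pig 5 next, 0.90 below RFIpl pig 5. The groups overlapped, and 3 of the 8 RFIpl pigs lay above the RFIneg mean.

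OAS enzymes are switched on by double-stranded RNA and make short oligoadenylates that set off the breakdown of RNA. OAS1 (probe A_72_P444998) ran from 0.69 through 1.74 to 2.77 in RFIneg, from 0.52 through 1.42 to 5.50 in RFIpl, and from 0.71 through 1.66 to 2.30 in RFIplR. RFIpl pigs 5 and 7, at 4.98 and 5.50, were 10.6-fold and 15.2-fold above the others' median. The other 6 RFIpl pigs averaged 1.17 ± 0.50 (SD, n = 6), below the RFIneg mean of 1.67 ± 0.78 (SD, n = 8). The 3 OAS1 probes were less alike than those of other genes, with correlations from 0.49 to 0.87 over the other 22 pigs. RFIneg pig 8, for example, was at 2.23 on the first probe and at 0.34 on A_72_P223657, whose own range in RFIneg was 0.34 to 2.33. All 3 probes placed RFIpl pigs 5 and 7 highest.

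OAS2 (probe A_72_P303179) had a smaller excess in the high pair on this probe than on its other probes. It ran from 2.89 through 5.10 to 5.77 in RFIneg, from 4.89 through 5.63 to 7.50 in RFIpl, and from 4.77 through 5.61 to 6.30 in RFIplR. RFIpl pigs 5 and 7 were again the highest, 3.71-fold and 4.23-fold above the other pigs' median. At the other end, RFIneg pig 8 stood 1.84 below the next RFIneg pig. That pig was the lowest of 24 on all 6 OAS2 probes, which correlated at 0.91 to 1.0 with one another over the other 22 pigs. OAS2 probes A_72_P303179 and A_72_P025136 share a run of 32 bases and are not independent readings.

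MX proteins are dynamin-like GTPases that trap incoming viral particles. MX1 (probe A_72_P440896) ran from 2.43 through 4.88 to 6.03 in RFIneg, from 2.32 through 4.87 to 7.47 in RFIpl, and from 2.0 through 4.43 to 5.33 in RFIplR. RFIpl pig 7 was the highest, RFIneg pig 5 was next at 6.03, and RFIpl pig 5 came after it at 5.72, 2.02-fold above the other pigs' median. In each group, 1 pig was far below the rest: RFIneg pig 7 at 2.43, RFIpl pig 8 at 2.32 and RFIplR pig 6 at 2.0. These 3 pigs were the lowest on all 5 MX1 probes, which correlated at 0.98 to 1.0. Their ISG15 levels were near the middle, at 4.09, 4.08 and 4.05 against a median of 3.90 over the 22 pigs other than the high pair.

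MX2 (probe A_72_P001276) ran from -1.45 through -1.07 to 0.93 in RFIneg, from -1.57 through -0.87 to 1.19 in RFIpl, and from -1.20 through -0.48 to 1.37 in RFIplR. On this probe the highest pig was RFIplR pig 7, followed by RFIpl pig 7 and RFIneg pig 5. RFIpl pig 5 was the sixth, at 0.10. RFIplR pig 7 was also highest on A_72_P177406, where RFIpl pig 5 ranked 6. RFIpl pig 7 was highest on A_72_P444240, where RFIpl pig 5 ranked 13. RFIneg pig 5 was highest on A_72_P027231, where RFIpl pig 5 ranked 8. The 4 MX2 probes correlated at 0.85 to 0.99 over the other 22 pigs.

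**Figure D2:**
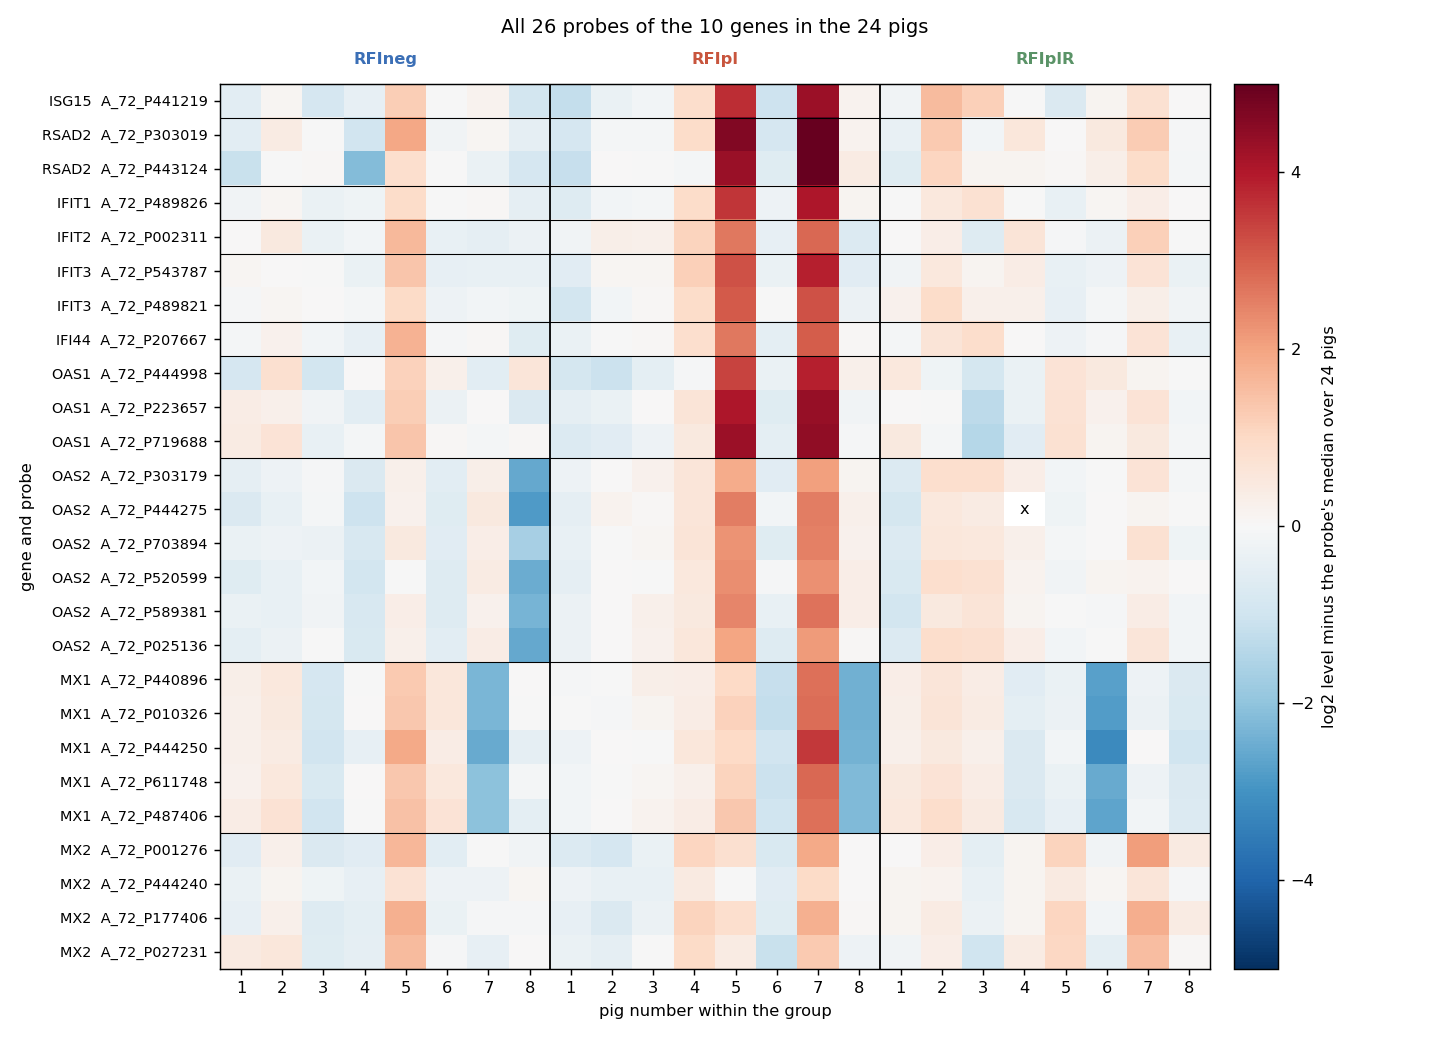
Each row is 1 of the 26 probes and each column 1 of the 24 pigs, in 3 groups of 8. Colour gives the log2 level minus the probe's median over the 24 pigs, and the x marks a spot left out because the scanner software flagged it as an outlier. The columns of RFIpl pigs 5 and 7 are red over nearly all genes, RFIneg pig 5 is paler red, OAS2 is blue in RFIneg pig 8 on 6 probes, and MX1 is blue in RFIneg pig 7, RFIpl pig 8 and RFIplR pig 6 on 5 probes.

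By the 1 probe used for each gene, the spread between pigs within a group was largest in RFIpl for all 10 genes. The SD within RFIpl was over 1 for 9 of the 10 genes, all but OAS2 at 0.95, against 1.4% of all kept probes. In RFIneg and in RFIplR it was over 1 for 1 gene each, MX1, against 1.56% and 2.05% of all kept probes. Over the 22 pigs without the high pair it was over 1 for MX1 alone, against 1.57% of all kept probes. The SDs of OAS2 and MX2 depended on the probe. Within RFIpl, the other OAS2 probes had SDs of 1.01 to 1.20, and the other MX2 probes 0.51 to 0.91. On MX2 probe A_72_P027231 RFIplR was the widest group, at 0.81 against 0.80 in RFIpl. Averaged over the 10 genes, each centred on its own mean, RFIneg was at -0.31 ± 0.60, RFIpl at 0.40 ± 1.56 and RFIplR at -0.095 ± 0.36 (SD, n = 8 each). In that average RFIpl pig 5 was at 2.49 and pig 7 at 3.15, while no other pig was above 1.07, the value of RFIneg pig 5. The other 6 RFIpl pigs averaged -0.40 ± 0.51 (SD, n = 6).

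Below the high pair the same few pigs recurred. RFIneg pig 5 was among the 5 highest pigs for 9 of the 10 genes, all but OAS2, where it ranked 9. RFIpl pig 4 and RFIplR pig 7 were among the 5 highest for 5 genes each, and RFIplR pigs 2 and 3 for 4 each. These pigs came from all 3 groups.

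The 2 lines at free intake were compared first, which asks whether selection for feed intake is accompanied by a different level of these genes. All 10 genes had a higher mean in RFIpl than in RFIneg, and 51% of all kept probes did. The median difference of the 10 genes was 0.77 on the log2 scale, against 0.0036 over all kept probes. The differences were 1.10 ± 0.72 for RSAD2, 1.01 ± 0.39 for OAS2, 0.97 ± 0.52 for IFIT1, 0.94 ± 0.63 for ISG15 and 0.88 ± 0.51 for IFIT3 (SE from limma, n = 8 each). IFIT2, IFI44 and OAS1 differed by 0.67, 0.63 and 0.51, and MX2 and MX1 by 0.24 and 0.15. Of the 26 probes, 25 were above 0, and MX2 probe A_72_P027231 was at -0.072.

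None of the 26 probes passed an adjusted p of 0.05 in limma between RFIpl and RFIneg, where 0.162% of all kept probes did. At an unadjusted p under 0.05 there were 7 of the 26, against 9.64% of all kept probes: the 6 OAS2 probes and A_72_P443124 of RSAD2. The OAS2 probes follow each other closely and count as 1 gene. By the 1 probe used for each gene, 1 of the 10 genes was under it, OAS2. For ISG15, 2 of the 8 RFIpl pigs were above the highest RFIneg pig and 2 were below the lowest. For OAS2, 3 RFIpl pigs were above the highest RFIneg pig, none was below the lowest and 7 of 8 were above the RFIneg mean. That lowest pig is the outlying RFIneg pig 8, which also lowers the mean. Without it OAS2 differed by 0.72.

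Without RFIpl pigs 5 and 7 the median difference between RFIpl and RFIneg turned to -0.098, and only 2 of the 10 genes remained above 0, against 52% of all kept probes. OAS2 was then 0.53 ± 0.34 and IFIT1 0.012 ± 0.22, while OAS1 was -0.51 ± 0.32, MX1 -0.44 ± 0.54, RSAD2 -0.18 ± 0.37 and ISG15 -0.13 ± 0.37 (SE, n = 6 and 8). This OAS2 value still includes the low RFIneg pig 8. None of the 26 probes then passed an adjusted p of 0.05 in limma, and none an unadjusted p under 0.05, where 0.125% and 8.65% of all kept probes did. The pair was set aside for its high levels of these same genes, which lowers their RFIpl means. The kept probes were not chosen that way, so the values without the pair describe and do not test. Leaving out either pig alone kept the median above 0, at 0.46 without pig 5 and 0.40 without pig 7.

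**Figure D3:**
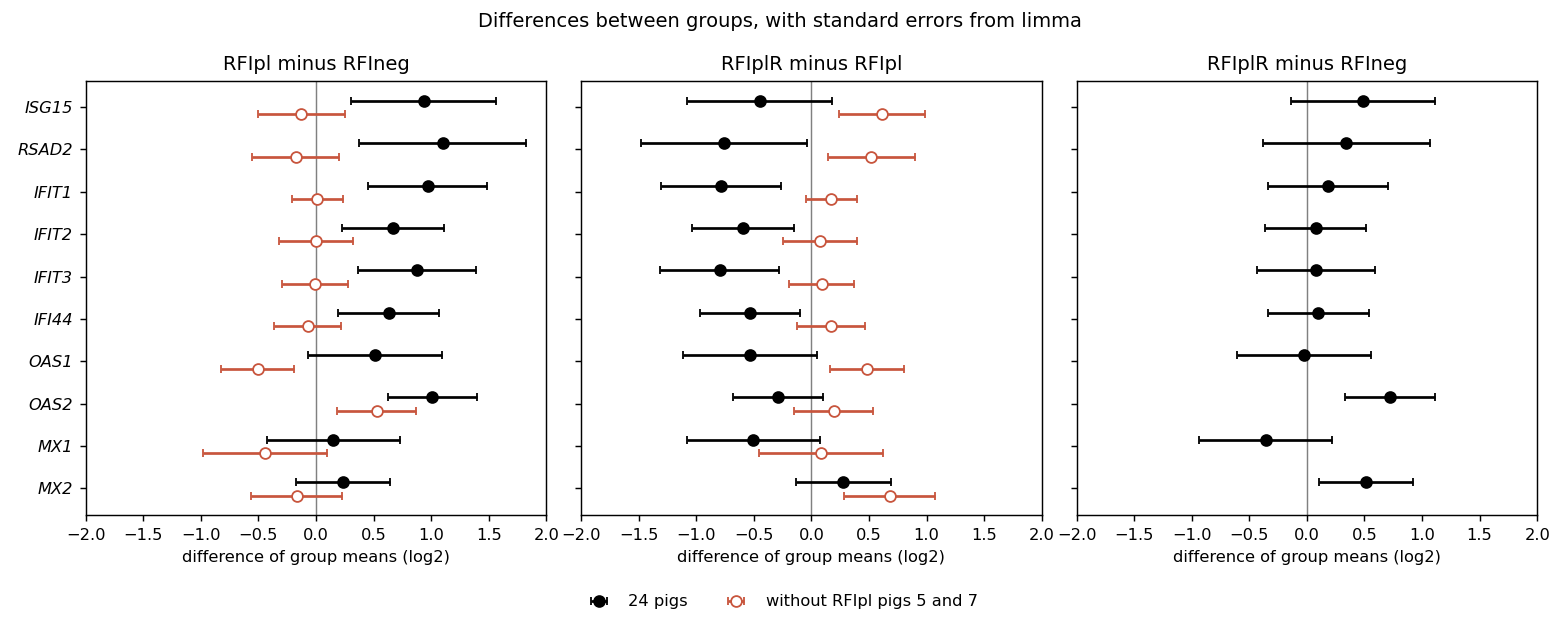
Differences of group means for the 10 genes on the log2 scale in the 3 comparisons, with standard errors from limma as bars. Filled points use all 24 pigs and open points leave out RFIpl pigs 5 and 7, which are not part of RFIplR minus RFIneg. In the first panel all 10 filled points lie above 0 and 8 open points do not, and in the second panel 9 filled points lie below 0 and all 10 open points above.

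The high RFI line was then compared at its 2 feeding levels, with the same RFIpl pigs as in the first comparison. In RFIplR minus RFIpl, 1 of the 10 genes was above 0, MX2 at 0.28 ± 0.41, against 46.9% of all kept probes. The median difference was -0.53, against -0.011 over all kept probes. IFIT3 had the lowest at -0.80 ± 0.51, followed by IFIT1 at -0.79 ± 0.52 and RSAD2 at -0.76 ± 0.72 (SE, n = 8 each). None of the 26 probes passed an adjusted p of 0.05 in limma, as was the case for all kept probes (0%), and none had an unadjusted p under 0.05, against 5.37% of all kept probes. Without RFIpl pigs 5 and 7 all 10 genes were above 0, against 44.7% of all kept probes, with a median of 0.18. Setting the pair aside for its high levels of these same genes raises these differences. The values without the pair therefore describe and do not test. MX2 was then 0.68 ± 0.39, ISG15 0.61 ± 0.37, RSAD2 0.52 ± 0.37 and OAS1 0.48 ± 0.32 (SE, n = 8 and 6), and none of the 26 probes passed either threshold in limma, against 0% and 6.47% of all kept probes.

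At the same amount of feed, RFIplR and RFIneg pigs compare the lines without the high pair. Here 8 of the 10 genes were above 0, against 48.7% of all kept probes, and the median difference was 0.14, against -0.0053 over all kept probes. OAS2 differed most, at 0.72 ± 0.39, with 4 of 8 RFIplR pigs above the highest RFIneg pig and 7 of 8 above the RFIneg mean. That mean includes the low RFIneg pig 8, without which OAS2 differed by 0.43 and MX2 by 0.50. On the other OAS2 probes, 1 to 3 RFIplR pigs were above the highest RFIneg pig. With all pigs MX2 was at 0.51 ± 0.41, ISG15 at 0.49 ± 0.63 and RSAD2 at 0.34 ± 0.72, while MX1 was at -0.36 ± 0.58 and OAS1 at -0.023 ± 0.58 (SE, n = 8 each). IFIT1, IFI44, IFIT3 and IFIT2 were between 0.076 and 0.18. On the other MX2 probes the difference was 0.073 to 0.44. None of the 26 probes passed an adjusted p of 0.05 in limma, where 0.229% of all kept probes did, and none had an unadjusted p under 0.05, against 12.8% of all kept probes. The RFIpl pair was set aside for its high levels of these same genes, which narrows their pooled spread and leaves these differences unchanged. The next counts therefore describe and do not test. With the wide RFIpl pair out of the pooled spread, 4 of the 26 probes had an unadjusted p under 0.05 in limma, against 13.3% of all kept probes, and none passed the adjusted one, against 0.256%. These were 3 of OAS2, whose probes follow each other closely and of which A_72_P303179 and A_72_P025136 overlap, and A_72_P443124 of RSAD2.

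The median of 0.14 between RFIplR and RFIneg moved with single pigs, to 0.33 without RFIneg pig 5, 0.088 without RFIneg pig 8 and 0.089 without RFIplR pig 2. It was -0.17 among pigs scanned on the first day and 0.52 among those scanned on the second. OAS2 itself stayed between 0.43 and 0.85 when any 1 pig was left out.

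How far the genes rose and fell together was described over the 22 pigs other than RFIpl pigs 5 and 7, since the pair lies apart and would set any correlation over all pigs. ISG15 and IFIT1 followed each other most closely, with r = 0.94 and rho = 0.97, and r = 0.94 after leaving out the 2 pigs farthest from the ISG15 median. ISG15 and IFI44 had r = 0.86, rho = 0.87 and 0.88 after the same step. IFIT2 and IFIT3, neighbours on the chromosome, had r = 0.88, rho = 0.74 and 0.80 after leaving out the 2 pigs farthest from the IFIT2 median. Values come from the same arrays and the same scaling, so they share the array as well as the pig, and all 45 pairs of genes were computed.

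IFIT1 and IFIT3, also neighbours, had r = 0.77 and rho = 0.57.

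The neighbours OAS1 and OAS2, and MX1 and MX2, had lower values. OAS1 and OAS2 had r = -0.28 and rho = -0.29 over the 22 pigs, and r = -0.045 without the 2 pigs farthest from the OAS2 median, RFIplR pig 3 and RFIneg pig 8. All OAS1 values here rest on probe A_72_P444998, and the OAS1 probes correlated with each other at only 0.49 to 0.87. RFIneg pig 8 was at 2.23 on that probe and at 0.34 on A_72_P223657. Whether the sign holds on the other OAS1 probes was not tested. MX1 and MX2 had r = 0.19 and rho = 0.19. OAS1 and MX1 had the lowest median correlations with the other 9 genes, 0.20 for OAS1 (range -0.28 to 0.59) and 0.23 for MX1 (range -0.038 to 0.52). MX2 had correlations of 0.35 to 0.78 with the 8 genes besides MX1, with a median of 0.60. The 28 pairs without an MX gene had a median of 0.65.

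**Figure D4:**
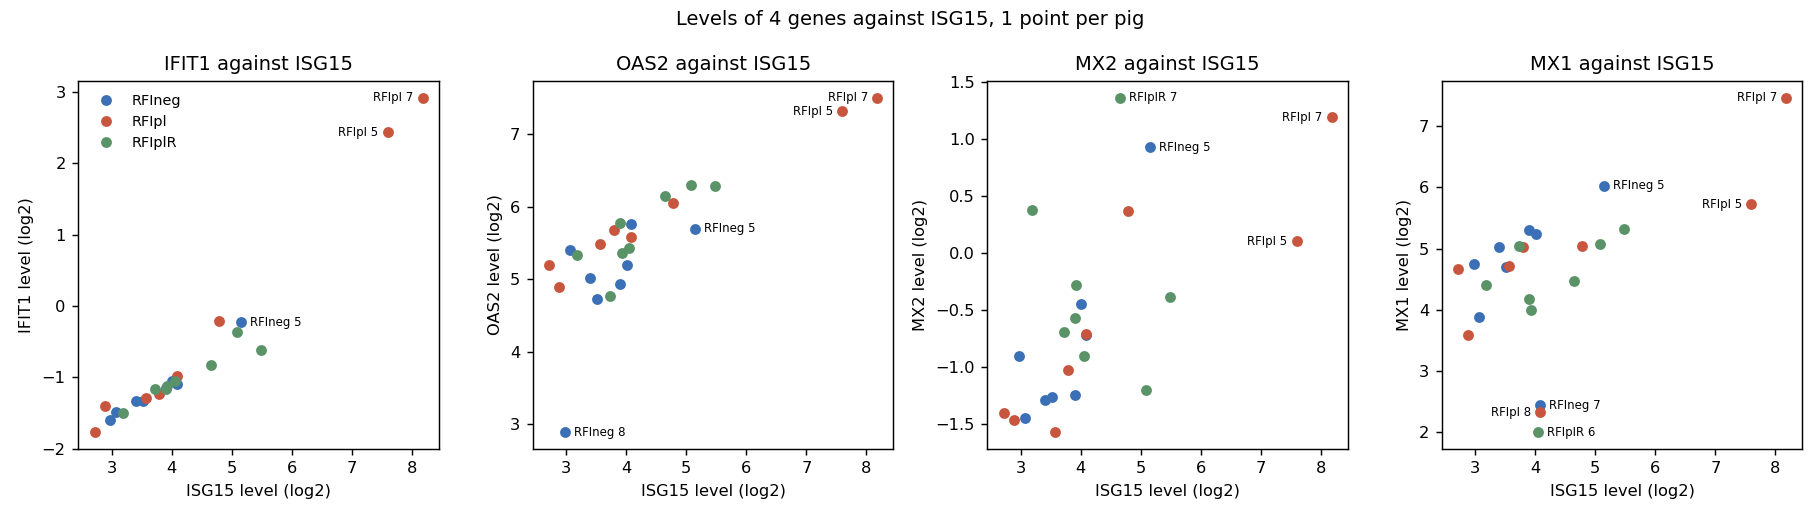
Levels of IFIT1, OAS2, MX2 and MX1 (vertical axes, log2 relative to the array's 75th percentile) against that of ISG15 (horizontal axes), with 1 point per pig coloured by group and single pigs named. IFIT1 lies along a line with ISG15, OAS2 does so apart from RFIneg pig 8, and for MX1 the 3 pigs at 2.0 to 2.43 have middling ISG15 levels.

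Genes outside the set with the most similar pattern were ranked by their correlation with the average of the 10 genes over all 24 pigs, among 4361 named genes. The first 8 included LGALS9, ZBP1, PARP12, DHX58, CDHR4, DDX60 and IRF7, and the 8 had r from 0.94 to 0.97. Over the 22 pigs without the high pair, the same 8 had r from 0.70 for IRF7 to 0.88 for LGALS9. These values share arrays and scaling with the set.

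The rest of the interferon pathway was read from gene lists, with each gene described by its brightest kept probe. Of the interferons, IFNA1, IFNB1 and IFNE were on the array but too dim to be kept. Interferon gamma, IFNG, was kept and well above background on 11 of 24 arrays, with RFIpl pig 5 at 0.42 and pig 7 at -0.37 from the median of the other 22 pigs. Its difference between RFIpl and RFIneg was 0.27 ± 0.22 (SE). The 5 receptor chains measured, IFNAR1, IFNAR2, IFNGR1, IFNGR2 and IL10RB, had a median difference of 0.012 between RFIpl and RFIneg, with IFNAR2 at 0.042, IFNGR1 at 0.042 and IFNGR2 at -0.035 farthest from 0. None of the 5 was more than 2-fold above the other pigs in both high pigs. From the others' median, IL10RB was at 0.64 in RFIpl pig 5 and -0.73 in pig 7. IFNGR2 was at -0.50 in pig 5 and 0.11 in pig 7.

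Of the signal transducers, IRF9 was more than 2-fold above the other pigs' median in both RFIpl pigs 5 and 7, by 1.13 and 1.09 on the log2 scale, while STAT2 was 0.42 and 0.27 above it. Of the interferon regulatory factors, IRF7, which amplifies interferon production, was 2.10 and 2.61 above, and IRF1 and IRF3 were within 1 of the median. Of 5 negative regulators, only USP18, which removes ISG15 from proteins and dampens the receptor, was raised in both pigs beyond 2-fold, by 2.94 and 3.33. Between RFIpl and RFIneg JAK2 differed by -0.28 ± 0.10 and IRF9 by 0.25 ± 0.17 (SE, n = 8 each). IRF7 differed by 0.60 and IRF1 by 0.32, and the negative regulators farthest from 0 were USP18 at 0.78, SOCS3 at -0.19 and PTPN6 at 0.17. None of the 15 genes measured from these 3 lists passed an adjusted p of 0.05 in limma in any of the 3 comparisons. IRF1 and JAK2 were among those with an unadjusted p under 0.05 between RFIpl and RFIneg, where 9.64% of all kept probes were. IRF1 was also under it in RFIplR minus RFIpl, where 5.37% of all kept probes were.

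Against 0.738% of all kept probes, 5 of 11 RNA and DNA sensors were more than 2-fold above the others' median in both pigs. They were ZBP1 (2.67 and 2.74), DDX58, the RNA helicase RIG-I (2.45 and 2.37), DHX58 (2.19 and 2.39), EIF2AK2, the kinase PKR that halts translation (1.81 and 1.79), and IFIH1 (1.62 and 1.62). The membrane adaptor MAVS and the toll-like receptors TLR7, TLR8 and TLR9 were not. Between RFIpl and RFIneg the list had a median difference of 0.20, and of 0.0015 without the pair, with EIF2AK2 at 0.55, ZBP1 at 0.54 and IFIH1 at 0.39 the farthest from 0. None of the 11 passed an adjusted p of 0.05 in limma in any comparison, and none had an unadjusted p under 0.05.

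Of 13 other genes of the type I interferon response, 7 were more than 2-fold above in both pigs, against 0.738% of all kept probes. Among the 7 were BST2, which tethers budding virus (2.30 and 1.86), and IFIT5 (1.78 and 2.26). The list had a median difference of 0.33 between RFIpl and RFIneg and of -0.0057 without the pair, and BST2 and IFIT5 were farthest from 0, at 0.71 and 0.59. None of the 13 passed an adjusted p of 0.05 in limma between RFIpl and RFIneg, and 4 had an unadjusted p under 0.05, against 9.64% of all kept probes.

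Against 0.738% of all kept probes, 4 of 15 genes induced by interferon gamma were more than 2-fold above in both pigs. They were CXCL9, CXCL10, CXCL11 and PSMB9. CXCL11 in pigs 5 and 7 (-1.51 and -1.22) was below the highest of the other 22 pigs (-1.18). CXCL9 in pig 7 (1.45) was also below the highest other pig (1.90), while CXCL10 and PSMB9 were above it in both pigs. The median difference of the list between RFIpl and RFIneg was 0.41, and 0.085 without the pair. In limma 8 of the 15 had an unadjusted p under 0.05, where 9.64% of all kept probes did. The list held the only gene of these lists past an adjusted p of 0.05 in limma, UBD, a ubiquitin-like protein, which was higher in RFIpl than in RFIneg by 1.73 ± 0.22 (SE, n = 8 each, adjusted p = 0.000624) and by 1.64 without the pair. CXCL9 and PSMB9 followed at 0.99 ± 0.38 and 0.69 ± 0.23 (SE). UBD in RFIpl pigs 5 and 7 was 0.83 and 0.63 above the median of the others.

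**Figure D5:**
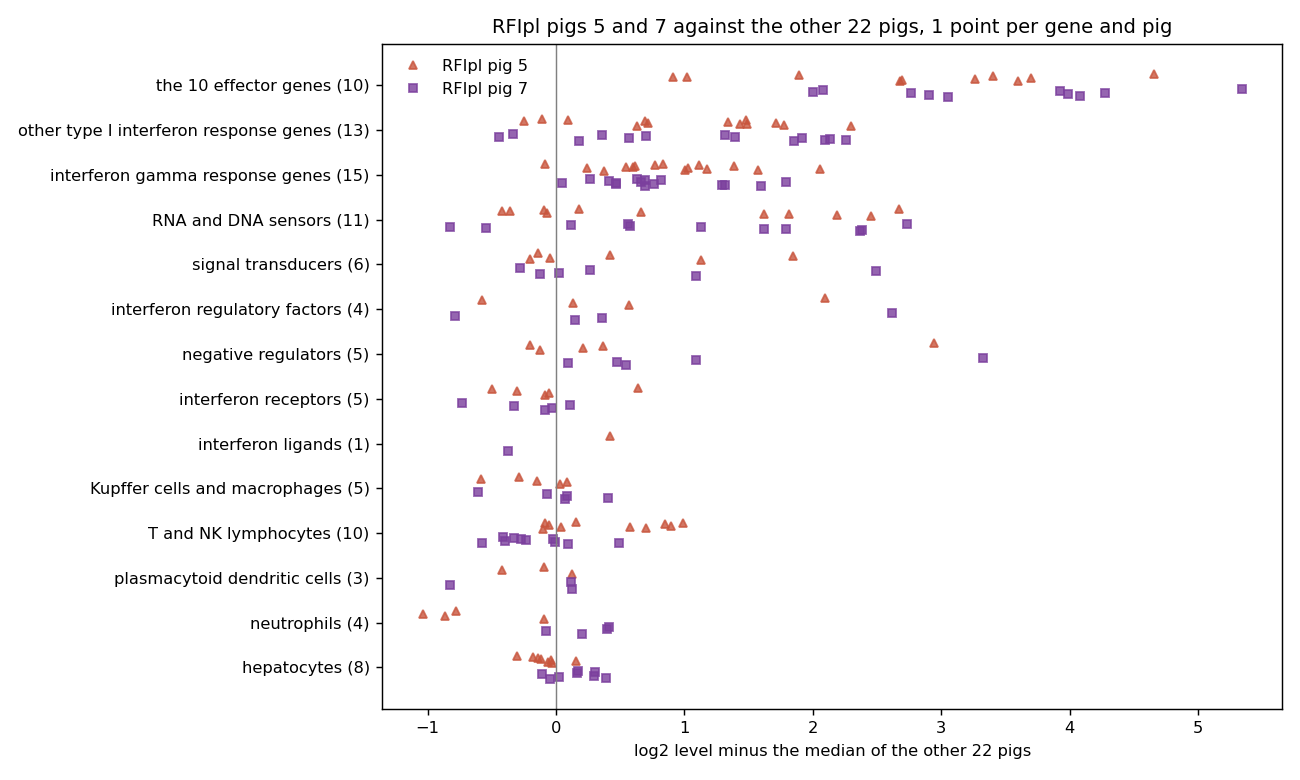
Each point is 1 gene in 1 pig, RFIpl pig 5 (triangles) or pig 7 (squares), at its log2 level minus the median of the other 22 pigs, with gene lists in rows and the number of genes measured in brackets. The 10 antiviral genes spread from 0.91 to 5.34, and some of the sensors, transducers and regulators lie beyond 2 and so to the right of MX2. Interferon receptors lie between -0.73 and 0.64, and hepatocyte markers between -0.30 and 0.39.

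Markers of other cell types were read in the same pigs. The summed level of the 5 macrophage markers measured (CD163, CD14, C1QA, VSIG4 and AIF1), on a linear scale relative to the 75th percentile, was 77.5 in RFIpl pig 5 and 91.1 in pig 7, within the 69 to 113 of the other 22 pigs. For 10 T and NK lymphocyte markers it was 11.8 and 11.3, within 7.12 to 14.7, although CD3G, CD8A and GZMA were 0.90, 0.85 and 0.99 above the others' median in pig 5 and not in pig 7. For 4 neutrophil markers it was 1.13 and 1.57, within 0.92 to 3.15, and for 3 plasmacytoid dendritic cell markers 1.70 and 1.68, within 1.13 to 2.03. The dendritic cell markers TLR7 and TLR9 are also among the sensors. The only B cell marker measured, CD79A, was at 0.058 and 0.036, within 0.027 to 0.087. The 8 hepatocyte markers summed to 3186 and 3744, within 3136 to 3810. Such sums follow mostly their brightest markers, and single markers left the range of the other 22 pigs. In RFIpl pig 7 VSIG4 and TLR7 were below that range and APOA1 was above it. In RFIpl pig 5 TTR was below it, and CD8A and CD3G were above it. None of the 32 cell type markers measured passed an adjusted p of 0.05 in limma in any comparison. An unadjusted p under 0.05 was seen for 1, CD163 between RFIplR and RFIneg, where 12.8% of all kept probes had one. CD3E, CD3D and CD163 were well above background on all 24 arrays.

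The 2 high pigs were on different slides and were scanned on different days. RFIpl pig 5 shared slide 3 with RFIneg pig 5 and RFIplR pigs 2 and 6, and the median of the 10-gene average on that slide was 0.73, against -0.48 to -0.26 on the other 5 slides. RFIpl pig 7 was on slide 6, whose median was -0.48. On the 4 arrays of slide 3, 63.2% to 65.7% of spots were well above background. On the arrays of the other 5 slides, 65.2% to 72.7% were. The first comparison, RFIpl minus RFIneg, had a median difference of 0.67 without slide 3 and of 0.88 with slide as a block, and of 0.51 and 0.92 within the scan days. RFIplR minus RFIpl had -0.24 without slide 3, -0.72 with slide as a block, and -0.69 and -0.39 within the scan days. Any part of slide 3 in the levels of its own 4 pigs was not tested.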

How the data were processed

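Liver RNA was read on 24 single-colour Agilent arrays with 45220 features, of which 1417 were controls, by Feature Extraction 10.7.3.1, per the file headers. The authors deposited scanner output whose intensity column, the processed signal, is already background-subtracted per the file headers, with columns of other values that mark spots as well above background, saturated or outliers by 0 or 1. They also deposited log2 values for 27564 features, each being the processed signal on the log2 scale less its array median. The submitters' processing notes name R 2.10.0.

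Here the log2 signal was scaled by subtracting the 75th percentile of each array, without a pseudocount. Control and outlier spots were left out (1 member spot, OAS2 in RFIplR pig 4), and spots were averaged into 43603 probes. The 29666 probes well above background on at least 6 of 8 arrays of a group entered limma 3.58.1, run in R 4.3.3 (group only, all 24 arrays, Benjamini-Hochberg, adjusted p under 0.05). The procedure was tested on simulated data.

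Probes were named through RefSeq names of Sscrofa11.1, by symbol (20 member probes), accession (2) or full name (4). Descriptions naming the choanoflagellate strain MX1 (137 probes) were left out. The members, gene lists and rules were chosen with earlier results of these data known. All members are named, with the 8 most similar other genes and the 3 genes of each list with the largest difference between RFIpl and RFIneg, except some that are not reported here. Other list genes and the single cell type markers set apart by their values, CD3G, CD8A, GZMA and CD163 among them, were named after their values were seen. Of 19 of the 26 probes with an open reading frame and no polyadenylation signal, 8 were picked by hand to be printed, leaving out those that looked untranslated. A planned search of promoters for motifs was not run here. The number of pigs limits the precision. Python 3.11.15, pandas 2.3.3, numpy 2.4.6 and matplotlib 3.10.9 were used. Alternatives are described in the closing section.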

Additional observations from a re-analysis of the deposited data

Results flagged for a closer look

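Each gene was checked in each group for a single pig whose gap to its nearest neighbour took up a larger part of the group's range than Dixon's critical value for 8 samples, over 30 gene and group combinations, of which chance flags about 1 in 20. In all, 8 such values (log2 levels) were found, and 6 of them were the highest value of RFIneg in pig 5: RSAD2 at 1.66, IFIT1 at -0.23, IFIT2 at -0.21, IFIT3 at 1.97, IFI44 at -0.29 and MX2 at 0.93. The next RFIneg pig was lower by 1.54 for RSAD2, 0.82 for IFIT1, 1.10 for IFIT2, 1.28 for IFIT3, 1.53 for IFI44 and 1.38 for MX2. OAS2 was low in RFIneg pig 8 at 2.89, where the next pig was at 4.73, and MX1 was low in RFIplR pig 6 at 2.0, where the next was at 4.0. RFIpl pigs 5 and 7 are not among them, and where both are far above the rest, each is the other's nearest neighbour. Genes of a pig are read on 1 array and are not independent.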

How the results depend on the processing

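No probe of the 10 genes passed an adjusted p of 0.05 in limma under any of the 15 alternatives or with any 1 of 24 pigs left out, and RFIpl pigs 5 and 7 remained the 2 highest for 8 genes under all 8 alternatives that could change it. RFIpl pigs 5 and 7 were chosen by their levels of these genes, so leaving them out describes and does not test. Without both pigs the median difference changed sign in RFIpl minus RFIneg (-0.098, 8 genes) and RFIplR minus RFIpl (0.18, 9 genes). With 1 pig left out it ranged from 0.40 to 0.98 and from -0.73 to -0.14, and from 0.088 to 0.33 in RFIplR minus RFIneg; in RFIplR minus RFIpl it was -0.26 without RFIpl pig 5 and -0.14 without pig 7. Left-out pigs turned ISG15 in RFIplR minus RFIpl (0.048 at the highest) and MX1 and MX2 in RFIpl minus RFIneg (-0.23 and -0.015 at the lowest), and in RFIplR minus RFIneg IFI44 (-0.00075), IFIT2 (-0.072), IFIT3 (-0.0047) and OAS1 (0.13). RFIplR minus RFIneg, at 0.14, was 0.066 under normexp background correction, where 4 genes changed sign, and -0.17 on the first scan day, where 7 did. There IFI44 moved from 0.10 to -0.55. The cause was not tested. Keeping outlier spots, an alternative chosen after seeing the data, left the medians at 0.77, -0.53 and 0.14. It could not change them, since the flagged member spot lay on an OAS2 probe not used for that gene.

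Pig numbers were not taken to pair the pigs: residuals of same-numbered pigs correlated over 0.1 in 1 of 8 pairs of RFIneg and RFIpl (-0.19 to 0.32), 2 of 8 of RFIneg and RFIplR and 5 of 8 of RFIpl and RFIplR (-0.036 to 0.42, mean 0.15, against -0.020 over 56 unlike-numbered pairs). With the replicate number as a block, 0 probes of the genes passed. Each number occurs once in every group, so this block cannot change the medians of 0.77, -0.53 and 0.14 and does not test them.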
